A study of Homo sapiens with 32 samples.

Results

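The genes described here are 10 negative feedback genes of the transforming growth factor β (TGFβ) pathway, namely SMAD7, SMAD6, BAMBI, PMEPA1, LDLRAD4, SMURF1, SMURF2, SKI, SKIL and TGIF1. They were chosen by name for what is known of their function, with earlier results of these data known, so that the choice was not blind. Each was found by matching its Ensembl identifier to the GENCODE symbol, which gave 10 of the 17788 genes of the RNA-seq count table. Their levels were followed in MCF10A cells, an immortalized and non-tumorigenic human mammary epithelial cell line, in 32 libraries. JUNB WT cells were clones 27 and 2. For its SNAI1, SNAI2 and ZEB1 clones the paper describes WT controls taken through CRISPR/Cas9 and cloning without genetic change. It does not restate this for the JUNB WT clones. JUNB mut cells, labelled JUNB KO, were clones 1 and 65, each grown from a single sorted cell after CRISPR/Cas9 editing of JUNB. The edit is described as leaving a small amount of a shorter JUNB protein. JUNB forms part of AP-1, and the comparison of the genotypes asks how the TGFβ1 response depends on it. Each clone received solvent (bovine serum albumin in phosphate-buffered saline) or 5 ng/ml TGFβ1 for 6, 24 or 72 h, in 2 replications. The labels give the solvent libraries the time 0 h, whereas the study's text describes solvent plates kept and harvested with the treated ones, and the groups are called solvent here. This made 8 groups of 4 libraries, with 2 clones per genotype, so that a difference between genotypes rests on 2 clones against 2. All libraries of a clone that bear the same replication number form a series, and values are listed in the order 27-1, 27-2, 2-1 and 2-2 for WT and 1-1, 1-2, 65-1 and 65-2 for mut.

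TGFβ binds a complex of type I and type II receptor kinases, which phosphorylate SMAD2 and SMAD3. These join SMAD4, enter the nucleus and regulate target genes, often together with AP-1. Many of the genes induced in this way encode inhibitors of the pathway itself: inhibitory SMADs and membrane proteins that act on receptors or receptor SMADs, E3 ubiquitin ligases that mark receptors and SMADs for degradation, and nuclear co-repressors that bind the SMAD complex. In epithelial cells this negative feedback is known to limit how strong and how long the response is.

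Library totals lay between 39702412 and 54651906 counts, and levels are given as CPM, the counts of a gene per 1000000 counts of its library. Of the values of the 10 genes, 1 lay under the floor of 3 counts, LDLRAD4 in the library WT 24 h 27-2 with a count of 2. The basal and epithelial markers KRT5 (3262 to 8158 CPM), KRT14 (181 to 2189 CPM), TP63 (64.7 to 152 CPM) and CDH1 (147 to 599 CPM) were present in all 32 libraries, and the leukocyte gene PTPRC reached at most 0.0498 CPM. JUNB itself ranged from 89.7 to 297 CPM in WT and from 69.2 to 518 CPM in mut libraries, so that its read count does not separate the genotype labels. Series 27-2 and series 1-2 stood apart for several feedback genes in solvent or at 6 h, and values without them are given where they change a call. In bulk RNA, a lower share of cells with a transcript and less of it per cell cannot be told apart.

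In solvent, the feedback genes covered a wide range of levels. Per kilobase of the canonical transcript, SKI was the most abundant in WT cells at 23.4 ± 1.39 CPM per kb (SD, n = 4), with SMURF2 behind it at 19.1 ± 4.95, TGIF1 at 18.9 ± 0.835 and PMEPA1 at 17.0 ± 7.40 CPM per kb. The libraries of each of these genes overlapped those of the next in this order. A second set below them held SMURF1 at 7.34, SKIL at 4.85, BAMBI at 4.58 and SMAD7 at 3.57 CPM per kb, again with overlapping neighbours, while SMAD6 (0.0362 CPM per kb) and LDLRAD4 (0.0259 CPM per kb) were close to the floor. After 72 h of TGFβ1 the order in WT cells was PMEPA1 at 182, SMURF2 at 42.9 and SKI at 32.2 CPM per kb, none of which overlapped the next, with TGIF1 (22.4) and SKIL (18.7) behind them. In mut cells at 72 h, PMEPA1 led with 140 CPM per kb, and SKI (40.1) stood above SMURF2 (34.0) with overlapping libraries.

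**Figure D1:**
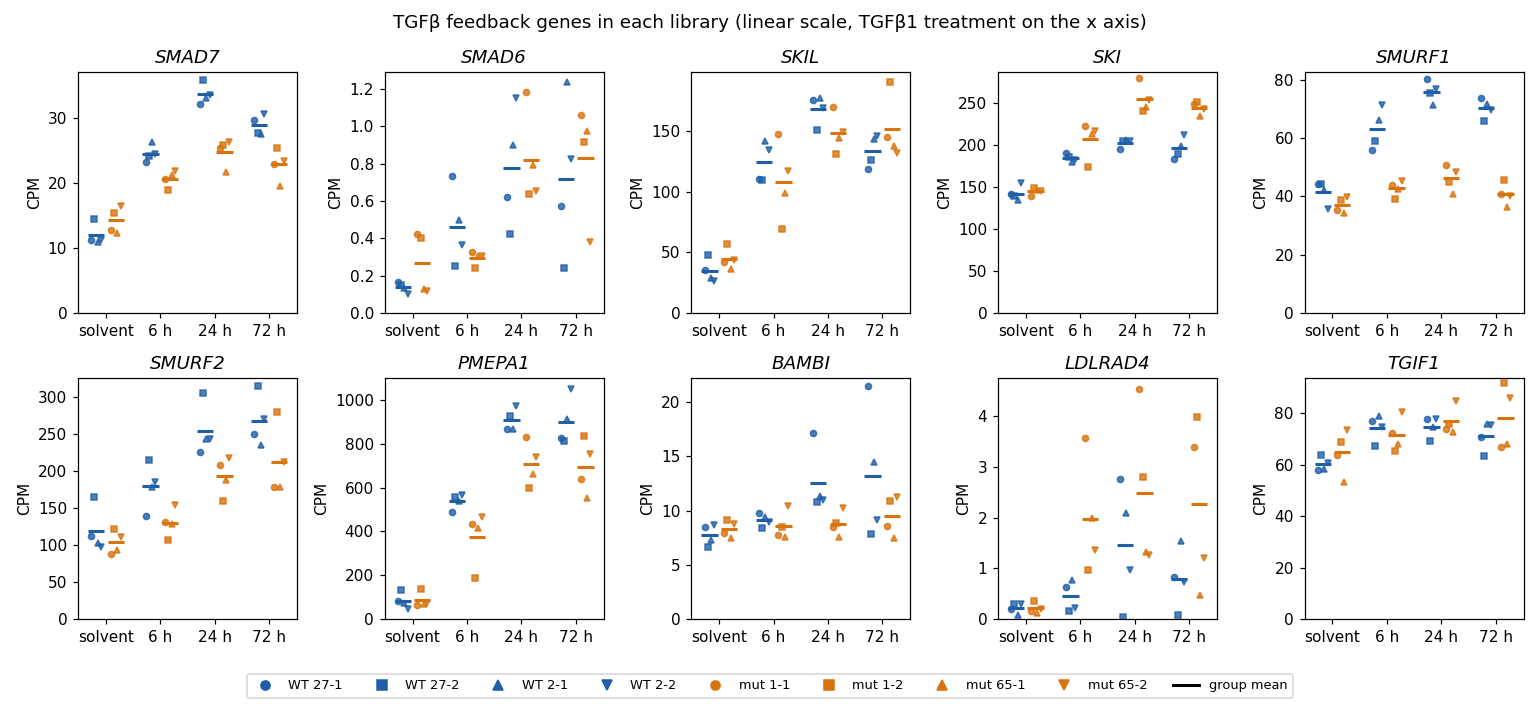
CPM of the 10 feedback genes in each of the 32 libraries, 1 panel per gene with a linear axis starting at 0; points are libraries, grouped by genotype and by solvent or 6, 24 and 72 h of TGFβ1. PMEPA1 moves from 48.4 to 136 CPM in solvent to 551 CPM or more at 24 and 72 h, while SMAD6 and LDLRAD4 stay below 5 CPM throughout.

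In WT cells, TGFβ1 raised most of the feedback genes, and lowered none. At 6 h, 7 of the 10 were called higher than in solvent (adjusted p under 0.05 in the limma-voom test over all 14865 genes tested), against 5.13% of all genes called higher and 17% called in either direction. At 24 h 9 of the 10 were higher, against 14.1% of all genes higher and 52.1% called, and at 72 h 9 of the 10, against 13.9% higher and 52.2% called. The median log2 fold change of the 10 genes was 0.70, 1.31 and 1.24 at the 3 times, beside -0.0785, -0.176 and -0.191 over all genes tested. In mut cells 4 were higher at 6 h (2.06% of all genes higher, 7% called), 8 at 24 h (6.75% higher, 23.8% called) and 7 at 72 h (7.81% higher, 24.1% called), with medians of 0.44, 0.86 and 0.89 beside -0.0600, -0.0980 and -0.0869. The 3 times of a genotype share their 4 solvent libraries. With TMM factors, which bring the WT median of all genes to 0.00139 (24 h) and -0.0286 (72 h), every one of the changes of the 10 genes kept its sign.

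**Figure D2:**
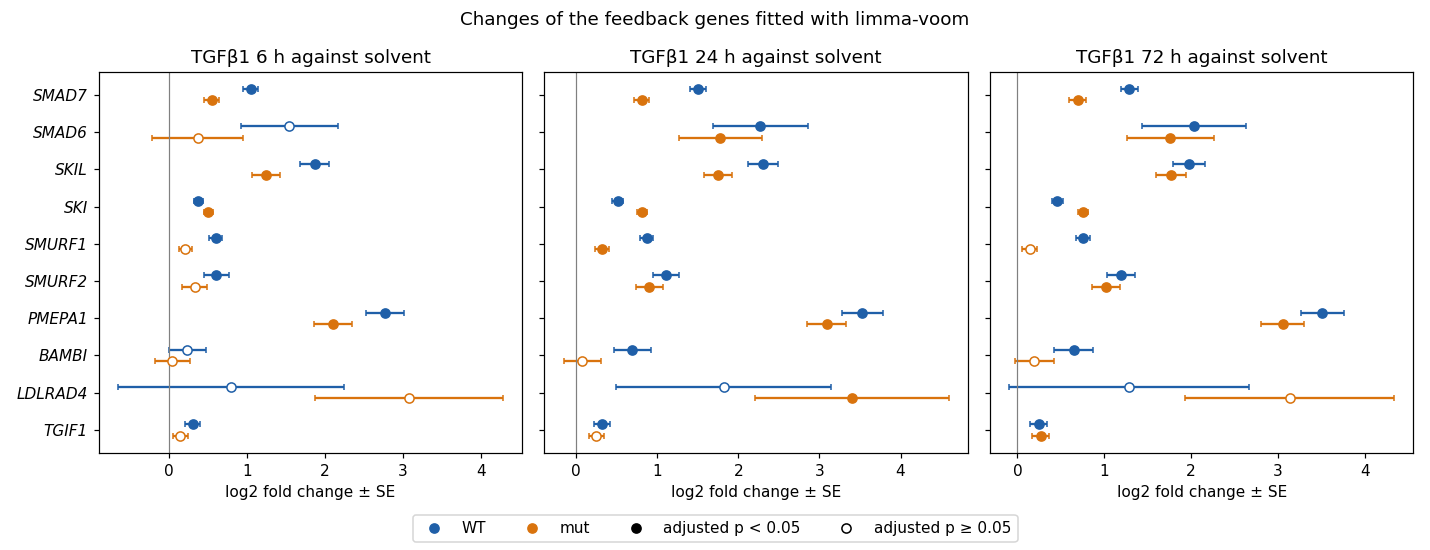
Log2 fold change (with SE) of each feedback gene against solvent at 6, 24 and 72 h of TGFβ1 in WT and in mut cells; filled points passed an adjusted p of 0.05 in limma-voom. At 24 h the estimates run from 0.32 (TGIF1) to 3.53 (PMEPA1) in WT and from 0.08 (BAMBI) to 3.40 (LDLRAD4) in mut.

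SMAD7 (ENSG00000101665, GRCh38 chr18:48919853-48950965, minus strand) encodes the inhibitory SMAD that binds activated type I receptors and recruits ubiquitin ligases to them. Solvent levels were 11.2, 14.4, 10.9 and 11.3 CPM in WT and 12.8, 15.3, 12.3 and 16.5 CPM in mut libraries. At 24 h the WT libraries had 32.1, 35.8, 33.0 and 33.4 CPM, and the mut libraries had 25.3, 25.8, 21.6 and 26.3 CPM. At 72 h the values were 29.7, 27.7, 27.6 and 30.6 CPM in WT and 22.9, 25.4, 19.6 and 23.4 CPM in mut. Every treated library was above every solvent library of its genotype, and at 24 and 72 h every WT library was above every mut library, although the genotypes overlapped in solvent. At 6 h the libraries ranged from 23.2 to 26.3 CPM in WT and from 18.8 to 21.8 CPM in mut. The log2 fold change in WT was 1.05 ± 0.10 (SE) at 6 h (adjusted p = 4.66e-08), 1.50 ± 0.10 at 24 h (adjusted p = 4.11e-12) and 1.29 ± 0.10 at 72 h (adjusted p = 5.31e-11). In mut cells it was 0.55 ± 0.10 (adjusted p = 0.00101), 0.81 ± 0.09 (adjusted p = 5.72e-07) and 0.69 ± 0.09 (adjusted p = 3.18e-06). Group means ordered as WT 24 h (33.6 ± 1.56 CPM), WT 72 h (28.9 ± 1.49), mut 24 h (24.8 ± 2.11), WT 6 h (24.5 ± 1.30), mut 72 h (22.8 ± 2.41) and mut 6 h (20.6 ± 1.27), then solvent, and the first 2 of these were each clear of the next group.

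SMAD6 (ENSG00000137834, chr15:66702236-66782849, plus strand) encodes the inhibitory SMAD known mainly for restraining bone morphogenetic protein signals. It was measured on 4 to 56 reads per library, with 0.168, 0.151, 0.135 and 0.101 CPM in WT solvent and 0.622, 0.426, 0.901 and 1.15 CPM in WT at 24 h. Mut solvent libraries had 0.423, 0.404, 0.126 and 0.121 CPM, the upper pair being clone 1 and the lower pair clone 65, and mut libraries at 24 h had 1.18, 0.639, 0.795 and 0.655 CPM. SMAD6 rose in WT at 24 h (log2 fold change 2.27 ± 0.59, adjusted p = 0.00184) and at 72 h (2.03 ± 0.60, adjusted p = 0.0057), and in mut at 24 h (1.78 ± 0.51, adjusted p = 0.0118) and 72 h (1.76 ± 0.51, adjusted p = 0.0113). At 6 h the WT estimate was 1.54 ± 0.62 (adjusted p = 0.0906), which passed with the series as a block (1.63, adjusted p = 0.0143, with 0.00858 to 0.201 over all alternatives) and without series 27-2 (1.83, adjusted p = 0.0499), and the mut estimate was 0.37 ± 0.58 (adjusted p = 0.767). The WT estimate at 6 h also passed with edgeR (adjusted p = 0.0158), DESeq2 (0.00858) and the replication number as a block (0.0429). Without the library mut solvent 65-2 both mut calls were lost, with adjusted p = 0.0538 at 24 h and 0.0562 at 72 h, as they were with the replications of a clone summed (0.0633 and 0.0559). Over all alternatives the mut adjusted p ran from 0.00179 to 0.0633 at 24 h and from 0.00141 to 0.0562 at 72 h.

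Of the 10 genes, 9 had a RefSeq promoter window (250 bases before to 50 bases after a transcript start, GRCh38.p14), 28 windows in all. Both strands were searched for GTCTAGAC, a palindrome known to bind SMAD proteins in vitro, for the SMAD box CAGACA, and for TGANTCA. The last is a loose form of the AP-1 consensus TGA(C/G)TCA, since N admits any base. The palindrome stood in the window of 1 feedback gene, SMAD6, and in 0.202% of all 35116 windows. CAGACA stood in 10 of the 28 windows, belonging to LDLRAD4, PMEPA1, SMURF2 and TGIF1, and in 16.9% of all windows. TGANTCA stood in 3 of the 28, all of TGIF1, and in 7.71% of all windows. These 3 matches read TGAATCA or TGATTCA, so that none was the AP-1 consensus. Several windows can belong to the same gene, so the share was also taken by gene. The palindrome was found for 1 of the 9 genes, beside 0.256% of all 27305 genes with a window. CAGACA was found for 4 of the 9, beside 19.9%, and TGANTCA for 1 of the 9, beside 9.37%. A gene with more windows has more places for a match. The 9 genes had 28 windows, and the 27305 genes had 35116, fewer per gene. The shares by gene are not matched for this, so an excess cannot be read from them. These 4 stretches show matches upstream of a start, in capitals. The palindrome is shown for SMAD6 (chr15:66702194-66702235, plus strand). The SMAD box is shown for PMEPA1 (chr20:57710657-57710722, minus strand, within an exon of the long non-coding RNA gene NKILA) and LDLRAD4 (chr18:13217834-13217899, plus strand). TGANTCA is shown for TGIF1 (chr18:3447292-3447332, plus strand), where it reads TGAATCA.
SMAD6: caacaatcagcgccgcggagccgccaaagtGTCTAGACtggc
PMEPA1: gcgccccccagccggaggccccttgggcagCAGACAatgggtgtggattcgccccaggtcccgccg
LDLRAD4: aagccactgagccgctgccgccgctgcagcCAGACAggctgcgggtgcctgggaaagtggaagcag
TGIF1: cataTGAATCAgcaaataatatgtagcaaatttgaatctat
They include PMEPA1, which had the largest fitted change of the 10 in WT, and TGIF1, which had the smallest of those called there. A match is a run of letters in a window, and binding was not measured.

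PMEPA1 (ENSG00000124225, chr20:57648392-57711536, minus strand) encodes a membrane protein that keeps SMAD2 and SMAD3 away from the activated receptor. It had 80.9, 135, 72.3 and 48.4 CPM in WT solvent and 869, 928, 866 and 974 CPM in WT at 24 h. Mut libraries had 66.1, 136, 71.4 and 73.4 CPM in solvent and 833, 600, 664 and 742 CPM at 24 h. Treated and solvent libraries were far apart in both genotypes, and in solvent series 27-2 and 1-2 had the highest value of their genotype. In WT the log2 fold change was 2.77 ± 0.25 at 6 h (adjusted p = 3.03e-08), 3.53 ± 0.25 at 24 h (adjusted p = 1.72e-11), which is 11.5-fold, and 3.51 ± 0.25 at 72 h (adjusted p = 1.39e-11). In mut it was 2.10 ± 0.24 (adjusted p = 9.3e-06), 3.09 ± 0.25 (adjusted p = 1.63e-09) and 3.05 ± 0.25 (adjusted p = 1.16e-09). At 6 h the mut libraries held 433, 188, 418 and 466 CPM, and the change of series 1-2 against its own solvent library was 0.46 on the log2(CPM + 0.5) scale beside 2.70, 2.54 and 2.66 in the other 3.

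LDLRAD4 (ENSG00000168675, chr18:13217498-13652755, plus strand) is related to PMEPA1 and also holds back receptor SMADs at the membrane. Solvent libraries had 0.210, 0.301, 0.0901 and 0.302 CPM in WT and 0.169, 0.359, 0.126 and 0.201 CPM in mut. At 24 h the WT values were 2.76, 0.0426, 2.09 and 0.962 CPM, the lowest standing on 2 reads and the highest on 151, and the mut values were 4.53, 2.81, 1.33 and 1.26 CPM. In WT the treated libraries were scattered on both sides of solvent, whereas in mut the treated libraries at 6, 24 and 72 h all lay above the solvent libraries. The mut log2 fold change was 3.40 ± 1.19 at 24 h (adjusted p = 0.0378), 3.08 ± 1.20 at 6 h (adjusted p = 0.114) and 3.13 ± 1.21 at 72 h (adjusted p = 0.0576), and the WT estimates at 6, 24 and 72 h were 0.80 ± 1.45 (adjusted p = 0.780), 1.82 ± 1.33 (adjusted p = 0.261) and 1.29 ± 1.38 (adjusted p = 0.454). With the series as a block it was called in mut at 6 h (3.09, adjusted p = 0.00484) and 72 h (3.35, adjusted p = 0.000583) and in WT at 24 h (2.88, adjusted p = 0.00168) and 72 h (2.06, adjusted p = 0.0256). edgeR and DESeq2 also called LDLRAD4 in mut at 6 h (adjusted p = 0.0216 and 0.00272) and 72 h (0.00278 and 0.000219) and in WT at 24 h (0.00539 and 0.00153). DESeq2 called it in WT at 72 h too (0.0375). The mut call at 24 h was lost without any 1 of the 4 mut solvent libraries or of mut 24 h 1-1 and 1-2 (adjusted p 0.0588 to 0.0919), and without series 1-2 (0.0859). LDLRAD4 was called in WT at 24 h without WT 24 h 27-2 (3.11, adjusted p = 0.0152) or without series 27-2 (3.29, adjusted p = 0.0185), and in mut at 72 h without mut 72 h 65-1 (3.67, adjusted p = 0.0200). Without series 27-2, a WT series that enters the shared estimate of the spread, the mut changes at 6 h (3.08, adjusted p = 0.0406) and 72 h (3.13, adjusted p = 0.0146) were called with the same estimates as before. Over all alternatives the adjusted p ran from 0.00272 to 0.237 at 6 h, 0.000136 to 0.0919 at 24 h and 0.000219 to 0.184 at 72 h in mut, and from 0.00153 to 0.551 at 24 h and 0.0256 to 0.69 at 72 h in WT.

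BAMBI (ENSG00000095739, chr10:28677510-28682932, plus strand) encodes a receptor-like membrane protein without a kinase, which acts as a decoy. WT solvent libraries had 8.49, 6.62, 7.25 and 8.64 CPM, and WT libraries had 17.2, 10.8, 11.4 and 11.0 CPM at 24 h and 21.5, 7.81, 14.5 and 9.10 CPM at 72 h. Mut libraries had 7.89, 9.10, 7.43 and 8.75 CPM in solvent and 8.45, 8.86, 7.52 and 10.2 CPM at 24 h. The WT libraries at 24 h lay above solvent with series 27-1 highest, those at 72 h overlapped solvent, and the mut libraries overlapped at every time. In WT the log2 fold change was 0.69 ± 0.22 at 24 h (adjusted p = 0.0103) and 0.65 ± 0.22 at 72 h (adjusted p = 0.0168), and these calls were lost without the library of series 27-1 at that time (0.51, adjusted p = 0.0653, the highest at 24 h over all alternatives, and 0.37, adjusted p = 0.111). At 72 h the call was also lost in a fit of WT 72 h and solvent alone (adjusted p = 0.113, the highest over all alternatives; the lowest was 3.54e-05). The mut estimates were 0.04 ± 0.23 at 6 h (adjusted p = 0.939), 0.08 ± 0.23 at 24 h (adjusted p = 0.848) and 0.19 ± 0.22 at 72 h (adjusted p = 0.578).

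SMURF1 (ENSG00000198742, chr7:99027440-99144108, minus strand) encodes an E3 ubiquitin ligase that SMAD7 brings to the receptor. WT libraries had 44.4, 44.1, 42.3 and 35.6 CPM in solvent, 80.3, 75.4, 71.1 and 76.6 CPM after 24 h and 73.7, 65.8, 71.5 and 69.7 CPM after 72 h. Mut libraries had 35.4, 38.7, 34.4 and 39.6 CPM in solvent, 50.7, 45.1, 40.8 and 48.3 CPM after 24 h and 40.7, 45.7, 36.5 and 40.0 CPM at 72 h. At 6 h the WT libraries ranged from 56.0 to 71.3 CPM and the mut libraries from 39.2 to 45.4 CPM. In WT all treated libraries lay above all solvent libraries, and at 6, 24 and 72 h all WT libraries lay above all mut libraries. SMURF1 rose in WT by a log2 fold change of 0.60 ± 0.08 at 6 h (adjusted p = 9.58e-06), 0.87 ± 0.08 at 24 h (adjusted p = 1.35e-09) and 0.76 ± 0.08 at 72 h (adjusted p = 1.75e-08). In mut cells it rose at 24 h (0.32 ± 0.09, adjusted p = 0.00738), with estimates of 0.21 ± 0.09 at 6 h (adjusted p = 0.131) and 0.14 ± 0.09 at 72 h (adjusted p = 0.251). Exons of SMURF1 overlap those of TRRAP on the other strand, and the kit kept no strand. The TRRAP estimates in WT had the opposite sign, with a log2 fold change of -0.34 at 24 h (adjusted p = 0.0109) and -0.24 at 72 h (adjusted p = 0.0685), and its interaction estimates were 0.28 (adjusted p = 0.286) and 0.10 (adjusted p = 0.741).

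SMURF2 (ENSG00000108854, chr17:64542282-64662307, minus strand) encodes the related ligase, another partner of SMAD7. WT libraries had 112, 165, 103 and 97.5 CPM in solvent and 250, 314, 236 and 270 CPM at 72 h, and mut libraries had 88.6, 122, 92.9 and 111 CPM in solvent and 179, 279, 178 and 212 CPM at 72 h. Series 27-2 held the highest WT value at both of these times and series 1-2 the highest mut value, and solvent and 72 h libraries did not overlap in either genotype. SMURF2 rose in WT at 6 h (0.61 ± 0.16, adjusted p = 0.00921, with overlapping libraries), at 24 h (1.11 ± 0.16, adjusted p = 1.37e-06) and at 72 h (1.19 ± 0.16, adjusted p = 6.13e-07). In mut it rose at 24 h (0.91 ± 0.16, adjusted p = 0.000185) and 72 h (1.02 ± 0.16, adjusted p = 2.52e-05), with 0.33 ± 0.16 at 6 h (adjusted p = 0.230). Its exons overlap those of CEP95 on the other strand, whose WT estimates were -0.32, -0.66 and -0.50 at the 3 times, opposite in sign to those of SMURF2.

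SKI (ENSG00000157933, chr1:2227388-2310213, plus strand) encodes a nuclear co-repressor that binds SMAD complexes on target genes. It had 141, 139, 134 and 154 CPM in WT solvent, 195, 205, 206 and 204 CPM in WT at 24 h and 183, 189, 199 and 211 CPM in WT at 72 h. Mut libraries had 140, 149, 146 and 145 CPM in solvent, 280, 241, 245 and 253 CPM after 24 h and 248, 251, 235 and 243 CPM at 72 h. The genotypes overlapped in solvent, and at 24 and 72 h every mut library was above every WT library, the opposite order to SMAD7 and SMURF1. SKI rose in WT by 0.38 ± 0.06 at 6 h (adjusted p = 9.27e-05), 0.51 ± 0.06 at 24 h (adjusted p = 8.19e-08) and 0.46 ± 0.06 at 72 h (adjusted p = 5.24e-07) on the log2 scale. In mut it rose by 0.51 ± 0.06 (adjusted p = 1.31e-05), 0.81 ± 0.06 (adjusted p = 1.58e-09) and 0.75 ± 0.06 (adjusted p = 1.43e-09).

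SKIL (ENSG00000136603, chr3:170357342-170396835, plus strand) encodes SnoN, the co-repressor related to SKI. WT libraries had 35.8, 47.5, 29.0 and 26.6 CPM in solvent and 175, 150, 177 and 169 CPM at 24 h, and mut libraries had 42.3, 56.8, 36.0 and 43.4 CPM in solvent and 170, 131, 144 and 149 CPM at 24 h. Treated libraries lay above solvent in both genotypes, and the genotypes overlapped at both times. The WT log2 fold change was 1.87 ± 0.18 at 6 h (adjusted p = 7.62e-08), 2.31 ± 0.18 at 24 h (adjusted p = 7.65e-11) and 1.97 ± 0.18 at 72 h (adjusted p = 1.32e-09). In mut it was 1.25 ± 0.18 (adjusted p = 7.27e-05), 1.75 ± 0.17 (adjusted p = 5.92e-08) and 1.77 ± 0.17 (adjusted p = 2.75e-08). At 6 h the mut libraries held 147, 69.1, 99.0 and 117 CPM, and series 1-2 was again the lowest.

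TGIF1 (ENSG00000177426, chr18:3411608-3459978, plus strand) encodes a homeodomain co-repressor of SMAD2 and SMAD3. It changed least of the genes called, with 58.1, 63.7, 58.1 and 60.4 CPM in WT solvent and 77.8, 69.3, 74.5 and 77.6 CPM in WT at 24 h, where the libraries did not overlap. Mut libraries had 63.6, 68.7, 53.4 and 73.6 CPM in solvent and 73.7, 75.8, 72.6 and 84.9 CPM at 24 h, which overlapped. TGIF1 rose in WT at 6 h (0.31 ± 0.10, adjusted p = 0.028), 24 h (0.32 ± 0.10, adjusted p = 0.00722) and 72 h (0.24 ± 0.10, adjusted p = 0.0375), and in mut at 72 h (0.27 ± 0.10, adjusted p = 0.0402), with 0.15 ± 0.10 at 6 h (adjusted p = 0.380) and 0.25 ± 0.10 at 24 h (adjusted p = 0.0556) in mut. With the series as a block the mut change at 24 h was called (0.25, adjusted p = 0.00817, with 0.00708 to 0.234 over all alternatives), as it was without mut solvent 65-2 (0.32, adjusted p = 0.0268) or series 27-2 (0.25, adjusted p = 0.0478). The same change was called with TMM factors (adjusted p = 0.0163), edgeR (0.0187), DESeq2 (0.00708), the replication number as a block (0.0431) and clone sums (0.0421). The WT calls at 6 h and 72 h were lost without any 1 solvent library or library of that time other than those of series 27-2 (adjusted p 0.0552 to 0.0754 at 6 h and 0.0580 to 0.0975 at 72 h). The mut call at 72 h was lost without mut solvent 1-1 or 65-1 or mut 72 h 1-2 or 65-2 (adjusted p 0.0814 to 0.191), without series 1-2 (0.174) and in a fit of mut 72 h and solvent alone (0.163), with 0.0046 to 0.191 over all alternatives.

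When 72 h of TGFβ1 was compared with 6 h, some feedback genes were called higher and none was called lower. In WT, 3 of the 10 were higher at 72 h than at 6 h, against 9.35% of all genes higher and 30.8% called, and in mut 5 of the 10, against 7.62% higher and 17.9% called. In WT these were PMEPA1 (0.74, adjusted p = 0.0197), SMURF2 (0.58, adjusted p = 0.00619) and SMAD7 (0.24, adjusted p = 0.0294). In mut they were SMAD6 (1.39, adjusted p = 0.0409), PMEPA1 (0.95, adjusted p = 0.00609), SMURF2 (0.69, adjusted p = 0.00321), SKIL (0.52, adjusted p = 0.0262) and SKI (0.25, adjusted p = 0.00543). The 24 h libraries do not enter this comparison. Means at 24 h and 72 h in WT were 909 and 900 CPM for PMEPA1 and 254 and 268 CPM for SMURF2. For SMAD7 they were 33.6 and 28.9 CPM, without overlap. Of the mut means, those of PMEPA1 and SKI were lower at 72 h than at 24 h, and those of SMAD6, SMURF2 and SKIL were higher. Without series 1-2, whose 6 h library was the lowest of its group for all 5 genes, none of the 5 mut calls remained. The estimates were then 1.23 for SMAD6 (adjusted p = 0.165), 0.55 for PMEPA1 (0.0619), 0.46 for SMURF2 (0.0646), 0.21 for SKIL (0.379) and 0.16 for SKI (0.0837). In WT the PMEPA1 call was lost without WT 6 h 27-1 (0.70, adjusted p = 0.0520) or WT 72 h 2-2 (0.66, adjusted p = 0.0641), and the SMAD7 call without WT 6 h 27-1, 27-2 or 2-2 or WT 72 h 27-1 or 2-2 (adjusted p 0.0546 to 0.0885) and with clone sums (0.0553). In mut the SMAD6 call was lost without any 1 library other than mut 72 h 65-2 (adjusted p 0.0655 to 0.110), and the SKIL call without mut 6 h 1-2 (0.33, adjusted p = 0.146), mut 6 h 65-1 (0.50, adjusted p = 0.0699) or mut 72 h 1-2 (0.41, adjusted p = 0.120). BAMBI in WT was called with the series as a block (0.47, adjusted p = 0.00891; 0.00891 to 0.622 over all alternatives), without series 27-2 (0.61, adjusted p = 0.0402) and without WT 72 h 27-2 (0.64, adjusted p = 0.0176). SMURF1 in WT was called with TMM factors (0.25, adjusted p = 0.0283), edgeR (0.0379) and DESeq2 (0.0261) and without WT 6 h 2-2 (0.22, adjusted p = 0.0436), with 0.0261 to 0.393 over all alternatives.

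In solvent, the genotypes did not differ by a call in any of the 10 genes, against 12.7% of all genes called. By limma-voom 1 of the 10, SMAD7, had an unadjusted p under 0.05 (log2 difference 0.26, adjusted p = 0.116), and it was called without WT solvent 27-2 (0.34, adjusted p = 0.0490, the lowest over all alternatives). edgeR and DESeq2 also called 0. The share of all genes at an unadjusted p under 0.05 is not given here. After 6 h of TGFβ1, 3 genes were lower in mut, against 10% of all genes lower and 21.4% called, namely SMURF1 (-0.56, adjusted p = 1.06e-05), SMURF2 (-0.46, adjusted p = 0.038) and SMAD7 (-0.24, adjusted p = 0.0476). The SMURF1 call held under every alternative without a minimum fold. The SMAD7 call at 6 h was lost without any 1 library other than WT 6 h 27-1 (-0.27 to -0.20, adjusted p up to 0.140), and also with TMM factors (adjusted p = 0.0509), edgeR (0.0637), DESeq2 (0.0551) and clone sums (0.0899), and without series 27-2 (0.0567) or series 1-2 (0.134). The SMURF2 call at 6 h was lost without any 1 library other than WT 6 h 27-1 and mut 6 h 65-2 (adjusted p up to 0.137), and without series 27-2 (-0.37, adjusted p = 0.0679) or series 1-2 (-0.37, adjusted p = 0.0921). LDLRAD4 stood 2.24 higher in mut at 6 h without overlap of the libraries (adjusted p = 0.118), and was called by edgeR (2.13, adjusted p = 0.0475), by DESeq2 (2.12, adjusted p = 0.0374) and in a fit of these groups alone (2.23, adjusted p = 0.0226), with 0.0226 to 0.235 over all alternatives. SKI was called higher in mut at 6 h without series 1-2 (0.24, adjusted p = 0.00332) or the library mut 6 h 1-2 (0.24, adjusted p = 0.00265, in place of 0.16 and 0.0679; 0.00265 to 0.212 over all alternatives), and PMEPA1 lower without mut 6 h 65-2 (-0.73, adjusted p = 0.0478, in place of -0.60 and 0.0734; 0.0478 to 0.38 over all alternatives).

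At 24 h and at 72 h, SMAD7 and SMURF1 were lower in mut and SKI was higher. All genes were called in 36.9% of cases at 24 h (24.7% higher and 12.2% lower in mut) and in 39.2% at 72 h (26% higher and 13.2% lower), so that 3 of 10 feedback genes is near the share of all genes in this fit. The median log2 difference of all genes was 0.0927 at 24 h and 0.0952 at 72 h with library-size scaling. With TMM factors it was 0.00579 and 0.0147, and the shares of all genes called there are not given. SMAD7 differed by -0.44 at 24 h (adjusted p = 0.000141) and -0.34 at 72 h (adjusted p = 0.0021), SMURF1 by -0.72 (adjusted p = 9.85e-08) and -0.78 (adjusted p = 2.31e-08), and SKI by 0.33 (adjusted p = 0.000125) and 0.32 (adjusted p = 0.000135). These 6 calls held under every alternative without a minimum fold, including sums of the replications of a clone. SMURF2 at 24 h (-0.39, adjusted p = 0.0529) and BAMBI at 24 h (-0.52, adjusted p = 0.0599) lay just outside. Under TMM factors both were called lower in mut (-0.48, adjusted p = 0.0283, and -0.61, adjusted p = 0.0280; 0.0192 to 0.179 and 0.0106 to 0.254 over all alternatives). SMURF2 was also called lower without WT 24 h 27-1 (-0.45, adjusted p = 0.0457), without mut 24 h 65-2 (-0.45, adjusted p = 0.0440) and, at 72 h, without mut 72 h 1-2 (-0.49, adjusted p = 0.0162) or series 1-2 (-0.49, adjusted p = 0.0118). With all libraries kept, SMURF2 at 72 h (-0.35, adjusted p = 0.0807 in the main fit) was called with TMM factors (0.0444), DESeq2 (0.0356) and the replication number as a block (0.0419). At 24 h edgeR (0.0308), DESeq2 (0.0194) and clone sums (0.0405) also called it. BAMBI was called lower without series 27-2 at 24 h (-0.59, adjusted p = 0.0315) and at 72 h (-0.59, adjusted p = 0.0224). With all libraries kept, BAMBI at 72 h (-0.36, adjusted p = 0.179 in the main fit) was called with clone sums (0.0189), edgeR (0.0385) and DESeq2 (0.0225). At 24 h these also called it (0.0106, 0.0232 and 0.0149). At 72 h, PMEPA1 was called lower without series 1-2 (-0.48, adjusted p = 0.0383), BAMBI lower without WT 72 h 27-2 (-0.59, adjusted p = 0.0207), and LDLRAD4 higher without mut 72 h 65-1 (2.34, adjusted p = 0.0354). PMEPA1 differed at 24 h by -0.37 without overlap of the libraries (adjusted p = 0.245, with 0.0119 to 0.431 over all alternatives). In a fit of the groups compared alone it was called lower at 24 h (-0.37, adjusted p = 0.0119) and at 72 h (-0.38, adjusted p = 0.0433).

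The difference between the genotypes' responses was tested as an interaction, in which the WT change is subtracted from the mut change. At 6 h it was called for none of the 10 genes, and for 0.074% of all genes, with 0 of the 10 called by edgeR or DESeq2. At that time 3 feedback genes had an unadjusted p under 0.05 by limma-voom, a threshold at which the share of all genes is not given here. At 24 h the interaction was called for 3 of the 10, against 9.65% of all genes (7.72% higher, 1.93% lower), and at 72 h for the same 3, against 12.3% (9.4% higher, 2.92% lower). SMAD7 had an interaction of -0.70 ± 0.14 (SE) at 24 h (adjusted p = 0.00205) and of -0.59 ± 0.14 at 72 h (adjusted p = 0.00447). Against the solvent library of its own series, on the log2(CPM + 0.5) scale, SMAD7 changed at 24 h by 1.49, 1.29, 1.55 and 1.53 in WT and by 0.96, 0.73, 0.79 and 0.66 in mut. SMURF1 had an interaction of -0.55 ± 0.12 at 24 h (adjusted p = 0.0044) and -0.62 ± 0.12 at 72 h (adjusted p = 0.00119). Its series changed at 72 h by 0.73, 0.57, 0.75 and 0.96 in WT and by 0.20, 0.24, 0.08 and 0.01 in mut. For both genes the 4 WT series lay above the 4 mut series at 24 h and at 72 h, and 1 of these 4 calls, SMURF1 at 24 h, was lost with the replications of a clone summed (-0.55, adjusted p = 0.0587; 0.000157 to 0.0587 over all alternatives).

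**Figure D3:**
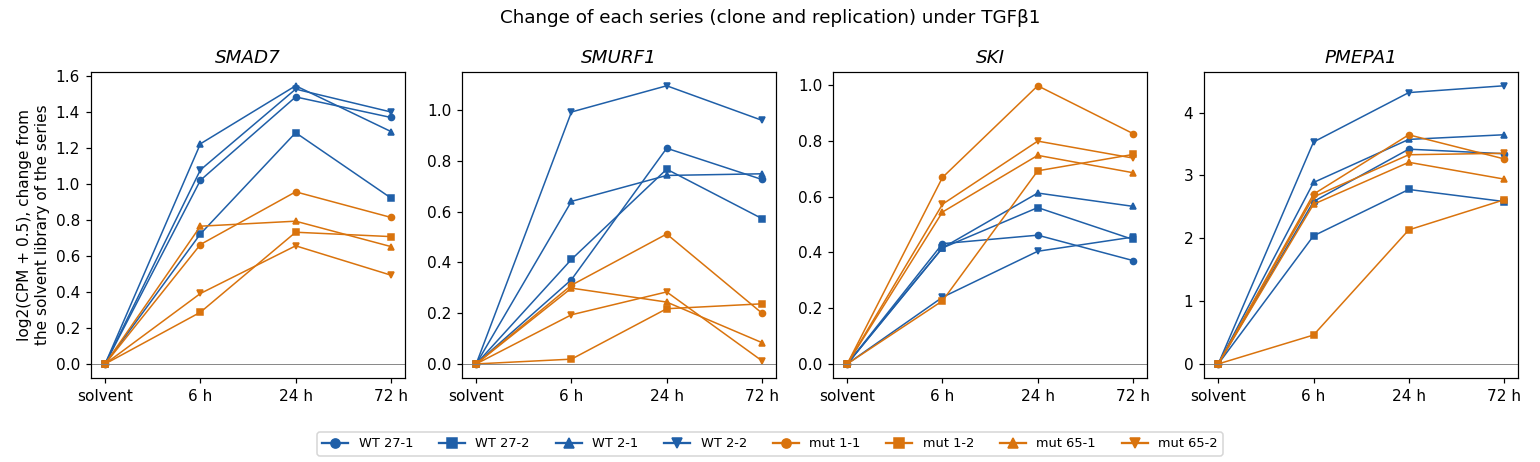
Change of SMAD7, SMURF1, SKI and PMEPA1 at 6, 24 and 72 h of TGFβ1 against the solvent library of the same series, on the log2(CPM + 0.5) scale; each line is 1 series, coloured by genotype. At 72 h the WT lines of SMURF1 end between 0.57 and 0.96 and the mut lines between 0.01 and 0.24, while for SKI the mut lines (0.69 to 0.83) end above the WT lines (0.37 to 0.57).

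SKI differed in the other direction, with an interaction of 0.30 ± 0.09 at 24 h (adjusted p = 0.0284) and 0.29 ± 0.09 at 72 h (adjusted p = 0.0268). Its series changed at 24 h by 0.46, 0.56, 0.61 and 0.40 in WT and by 1.00, 0.69, 0.75 and 0.80 in mut, without overlap. The median interaction of all genes was 0.0845 at 24 h and 0.104 at 72 h. Under TMM factors, which bring it to -0.00669 and 0.0187, the SKI estimate was 0.21 at both times and was not called (adjusted p = 0.216 and 0.200). The SKI interaction was also not called by edgeR (adjusted p = 0.206 and 0.200), by DESeq2 (0.159 and 0.233) or with clone sums (0.0986 and 0.0923), and at 72 h without series 27-2 (0.0561). At 24 h it was lost without WT solvent 2-2, WT 24 h 27-1, mut solvent 1-1 or mut 24 h 1-1 (adjusted p 0.0527 to 0.0667), and at 72 h without WT solvent 2-2, WT 72 h 27-1 or mut solvent 1-1 (0.0509 to 0.0670). It was 0.0123 to 0.216 at 24 h and 0.0127 to 0.233 at 72 h over all alternatives.

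For the other 7 genes the interaction did not pass, and the intervals allow sizeable differences in either direction for most. At 72 h it was -0.21 for SKIL (95% interval -0.73 to 0.31), -0.46 for PMEPA1 (-1.17 to 0.26), -0.17 for SMURF2 (-0.63 to 0.30), -0.46 for BAMBI (-1.11 to 0.19) and 0.02 for TGIF1 (-0.25 to 0.30). The low counts of SMAD6 gave -0.27 (-1.88 to 1.34) and those of LDLRAD4 1.84 (-1.91 to 5.60). At 24 h SKIL stood at -0.56 (-1.08 to -0.04, adjusted p = 0.172) and BAMBI at -0.62 (-1.28 to 0.04, adjusted p = 0.248). With the series as a block, the BAMBI interaction at 24 h was called (-0.64, adjusted p = 0.0364; 0.0364 to 0.455 over all alternatives). The median interaction of the 10 genes was -0.33, -0.47 and -0.24 at 6, 24 and 72 h.

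Other genes of the pathway were listed by role. Of 14 receptors and signal transducers, 4 were higher and 5 lower in WT at 72 h, and 2 were higher and 2 lower in mut at that time, beside 52.2% of all genes called in WT and 24.1% in mut. The median log2 fold change of the list at 72 h was -0.0265 in WT and -0.0285 in mut. TGFBR1, the type I receptor on which SMAD7 acts, rose in WT from 44.9 CPM in solvent to 83.3 CPM at 24 h and 83.6 CPM at 72 h (log2 fold change 0.89 at both), while mut means were 40.9, 45.4 and 42.4 CPM. Its interaction was -0.73 at 24 h (adjusted p = 0.005) and -0.83 at 72 h (adjusted p = 0.00119). ACVR1, another type I receptor, had interactions of -0.51 (adjusted p = 0.00937) and -0.47 (adjusted p = 0.0124). Of the 14, the interaction was called lower for these 2 and higher for 1 at each time. All genes were called in 9.65% at 24 h and 12.3% at 72 h, and the list medians were 0.003 and 0.0321. TGFBR3, the betaglycan co-receptor, fell in both genotypes, by 1.75 in WT and by 1.54 in mut at 72 h on the log2 scale.

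Of 15 further inhibitors and turnover factors, which were listed for their role and not for TGFβ induction, 2 were higher and 7 lower in WT at 72 h and 1 higher and 2 lower in mut, again beside 52.2% and 24.1% of all genes called, with medians of -0.134 and -0.0899. NEDD4L, a ubiquitin ligase for activated SMAD2 and SMAD3, fell in WT by 0.75 at 24 h and by 0.37 at 72 h and in mut by 0.67 and by 0.48. UCHL5, a deubiquitinase that can bind SMAD7, fell in WT by 0.93 at 24 h, with an interaction of 0.53 (adjusted p = 0.00417). FKBP1A, which caps the type I receptor, rose in WT by 0.40 at 24 h and 0.42 at 72 h, with an interaction of -0.33 at 24 h (adjusted p = 0.0423) and of -0.19 at 72 h (adjusted p = 0.245). Of the 15, the interaction at 24 h was called higher for 1 and lower for 1, which are UCHL5 and FKBP1A. At 72 h it was called higher for 2 and lower for 0. The list medians were 0.0795 and 0.0485, and 9.65% and 12.3% of all genes were called.

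Of 11 widely used TGFβ target genes tested, 8 were higher at 72 h in each genotype and 2 were lower in WT and 1 in mut, beside 13.9% of all genes higher in WT and 7.81% in mut, with medians of 0.87 in WT and 0.92 in mut. TGFBI, an extracellular matrix protein, rose by 3.56 in WT and 2.28 in mut at 72 h (interaction -1.29, adjusted p = 0.012). MYC fell by 1.01 in WT and by 0.34 in mut (interaction 0.67, adjusted p = 0.000517). Of the 11, the interaction at 72 h was called higher for 1 and lower for 1, which are these genes. The list median was -0.0886, and 12.3% of all genes were called. JUNB belongs to this list and is also the edited gene.

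**Figure D4:**
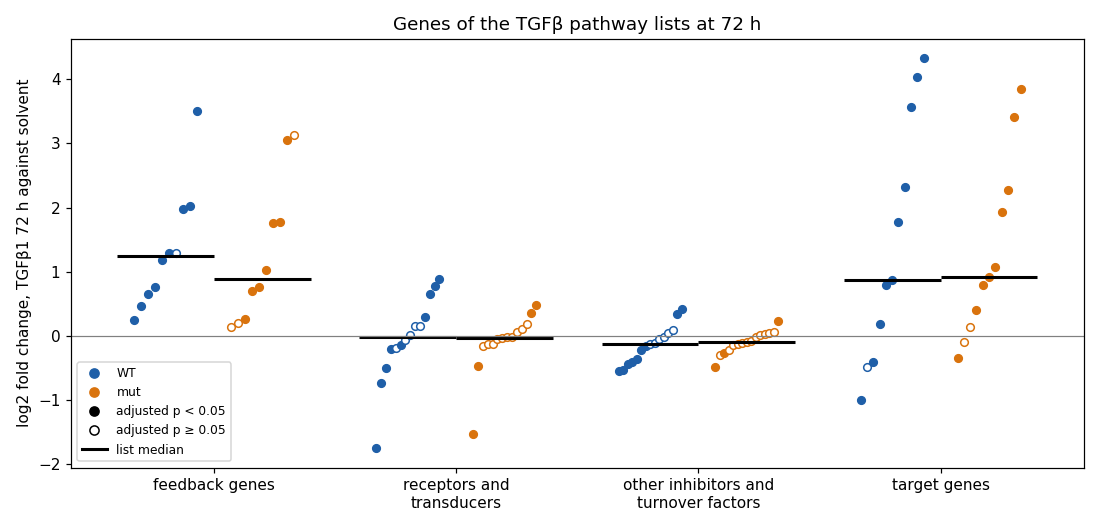
Log2 fold change at 72 h of TGFβ1 against solvent of each gene of 4 lists (feedback genes, receptors and transducers, other inhibitors and turnover factors, target genes) in WT and in mut cells; each point is 1 gene and the bar is the list median. The feedback genes have medians of 1.24 in WT and 0.89 in mut, and the other inhibitors and turnover factors -0.134 and -0.0899.

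Across the 32 libraries, which share the treatments, the feedback genes fell into patterns that are given here as a description. By the Pearson correlation of log2(CPM + 0.5), the gene of the 10 most like SMAD7 was PMEPA1 (0.944), and the one most like SKIL was PMEPA1 too (0.973). SMURF2 was also most like PMEPA1 (0.886), SMURF1 most like SMAD7 (0.780), SKI most like SKIL (0.853) and TGIF1 most like SKIL (0.751). SKI and SMURF1, which differed between the genotypes in opposite directions, had a correlation of 0.182. Among all genes with a mean of at least 10 CPM, the nearest to SMAD7 were VASN (0.958), P4HA2 (0.955) and KCTD11 (0.954). The nearest to SKIL were PMEPA1, SAMD4A (0.968) and DNAJB5 (0.960), and the nearest to PMEPA1 were ARHGEF40 (0.980), LBH (0.976) and ITGB6 (0.975).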

How the data were processed

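The authors' deposited values were whole-number read counts per gene, without normalization, from STAR alignment and counting on Ensembl GRCh38 after Trimmomatic; the TruSeq RNA v2 kit keeps no strand, and the strand setting of the counting is not given in the sources used here. Of counts from 1 to 20, 81.1% were even, so that CPM, and the read numbers given, may count both mates of a pair. GENCODE 44 (GRCh38) gave symbols for 17763 of 17788 genes, and the gene coordinates. The 10 genes, the pathway lists and the alternatives were chosen with earlier results of these data known, and every one of the 10 is named; the rule also named JUNB, 2 to 4 examples per list and the 3 nearest genes of SMAD7, SKIL and PMEPA1.

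Groups came from the labels. Low genes were removed with filterByExpr (edgeR 4.0.16, minimum 10 counts and 15 in total), leaving 14865. After library-size scaling, limma 3.58.1 voom (R 4.3.3) was fitted as ~0 + condition over all 32 libraries, with 15 two-sided comparisons, Benjamini-Hochberg adjustment over all genes tested and no minimum fold. Filter, interactions and the comparison of 72 h with 6 h were chosen here, and scaling and model follow the study's methods. The code was tested on simulated data. Reads here carry no molecular identifiers, and replications of 1 clone are not independent clones, so that p-values between genotypes measure the spread between these libraries. Libraries of a group differed by a chi-square per degree of freedom of at least 12.1 and each counted as 1 sample.

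Series share a clone and a replication number. Deviations from the group mean correlated by 0.431 on average within a series (-0.0601 to 0.795, 48 pairs) and by -0.136 between series of a genotype, and the pairing rests on the clone and replication number of the labels; clone and run were not separated. Alternatives were TMM factors, the edgeR quasi-likelihood test, DESeq2 1.42.0, no filter, genes averaging 50 or more counts (12417), only the groups compared, the series or the replication number as a block, clone sums, a minimum absolute log2 fold change of 1, removal of series 27-2 or 1-2, and leaving out each library. Promoter windows were RefSeq's. The values of 1 gene of the target list are not reported here.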

Additional observations from a re-analysis of the deposited data

Results flagged for a closer look

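In 4 of the 80 sets of 4 libraries (10 genes in 8 groups), 1 library lay apart from the other 3 by more than Dixon's critical value, and chance flags about 1 in 20 such sets. SMAD7 in WT solvent was 14.4 CPM in series 27-2, with 11.3 CPM as the next value. SKI in WT at 24 h was 195 CPM in series 27-1, with 204 CPM next. PMEPA1 in mut solvent was 136 CPM in series 1-2, with 73.4 CPM next, and BAMBI in WT at 24 h was 17.2 CPM in series 27-1, with 11.4 CPM next.

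The TGFβ1 response differed between the genotypes by the interaction test of limma-voom for 3 genes. SMAD7 had -0.70 at 24 h (adjusted p = 0.00205) and -0.59 at 72 h (adjusted p = 0.00447). SMURF1 had -0.55 (adjusted p = 0.0044) and -0.62 (adjusted p = 0.00119). SKI had 0.30 (adjusted p = 0.0284) and 0.29 (adjusted p = 0.0268), the only one of the 3 that was not called with TMM factors, edgeR or DESeq2.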

How the results depend on the processing

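Of the 10 genes' changes in the 15 comparisons, no called change turned its direction under any alternative. With a minimum absolute log2 fold change of 1, the numbers of feedback genes called against solvent at 6, 24 and 72 h were 3, 5 and 5 in WT and 2, 4 and 4 in mut, those at 72 h against 6 h were 0 in WT and 1 in mut, and those of mut against WT at 6, 24 and 72 h and of the interactions at 24 and 72 h were 0; the threshold itself removes smaller changes. For WT at 72 h against 6 h, edgeR called 5 and DESeq2 6; for mut, the groups compared alone gave 3, clone sums 3 and the removal of series 1-2 0. For mut against WT, the removal of series 27-2 left 1 at 6 h, TMM gave 5, the groups compared alone 6, clone sums 5, edgeR 5 and DESeq2 5 at 24 h, and the removal of series 1-2 gave 5 and DESeq2 5 at 72 h. The interaction at 24 h had 1 with clone sums. For these alternatives the shares of all genes called are not given here, so the numbers cannot be read against that background. The causes were not tested.

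Without 1 library at a time, the numbers called were 6 to 7, 8 to 10 and 7 to 9 in WT and 4 to 4, 7 to 8 and 6 to 8 in mut against solvent, 1 to 4 (1 without WT 6 h 27-1 or WT 72 h 2-2) and 3 to 5 at 72 h against 6 h, 0 to 1, 1 to 3, 3 to 4 and 3 to 4 for mut against WT in solvent and at 6, 24 and 72 h, and 0 to 0, 2 to 3 and 2 to 3 for the interactions. In the paired fit, which takes each series as a replicate block, 8, 10 and 10 were called in WT, 5, 9 and 8 in mut, 4 and 5 at 72 h against 6 h, and 0, 4 and 3 for the interactions. The shares of all genes called in these fits are not given here, so the numbers cannot be set against them. Beside the gains given with the genes, the block changed no call; it could not be fitted for mut against WT, since each series lies within 1 genotype. A mean count of at least 50 left SMAD6, at 4 to 56 reads per library, untested. LDLRAD4 passed it, and its WT libraries at 24 h spread from 2 to 151 reads.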
